A study of Mus musculus with 4 samples.

Results

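The genes described here encode nuclear subunits of the mitochondrial respiratory chain: 38 genes, of which 24 are named for complex I, 6 for complex III and 7 for complex IV, with cytochrome c (Cycs) as the remaining gene. They were chosen by symbol and matched through their Ensembl gene IDs, without version numbers, among the 52550 gene entries of each count file. All 38 were found, and all 38 passed the filter on low counts. Macrophages grown in culture from bone marrow gave poly(A)-enriched RNA, which was sequenced as 4 libraries, 1 per group. The mice were C57BL/6, aged 8 to 10 weeks. The groups were wild-type cells left unstimulated, wild-type cells given 100 ng/mL LPS for 12 h, miR-7 deficient cells left unstimulated, and miR-7 deficient cells given the same LPS treatment. LPS is a bacterial cell-wall component sensed by Toll-like receptor signalling, and miR-7 is a microRNA. The sources used here do not say how the deficiency was made, in which cells it holds, the sex of the mice or whether animals were pooled.

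Complex I takes electrons from NADH and passes them to ubiquinone, complex III passes them on to cytochrome c, and complex IV hands them to oxygen. Complexes I, III and IV pump protons as they work, and the ATP synthase uses that gradient. Each of the 3 complexes joins subunits made from nuclear genes to a few made from mitochondrial DNA. In macrophages, stimulation with LPS is widely known for a shift from mitochondrial respiration towards glycolysis, and respiratory complexes are also sources of reactive oxygen species.

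The promoters of the 3 genes that passed the test for LPS, Cycs, Ndufs4 and Ndufs8, are shown because those genes carry the calls described next. They come from the RefSeq promoter table on GRCm38.p6, and each spans 250 bases before to 50 bases after the start of the gene, written 5′ to 3′ along the gene. Cycs lies at chr6:50566520-50566819 on the minus strand, Ndufs4 at chr13:114388045-114388344 on the minus strand and Ndufs8 at chr19:3912725-3913024 on the minus strand. Capitals mark the motif found in each: the cAMP response element TGACGTCA in Cycs, the YY1 core AAGATGGC in Ndufs4, and CTTCCGG in Ndufs8, which is the ETS core CCGGAAG read on the opposite strand.
Cycs: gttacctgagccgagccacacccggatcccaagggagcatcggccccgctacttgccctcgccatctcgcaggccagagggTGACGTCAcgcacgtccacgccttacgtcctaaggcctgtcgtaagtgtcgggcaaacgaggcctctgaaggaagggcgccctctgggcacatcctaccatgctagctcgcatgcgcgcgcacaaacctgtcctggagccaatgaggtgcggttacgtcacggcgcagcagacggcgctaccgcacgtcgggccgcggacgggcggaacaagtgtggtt
Ndufs4: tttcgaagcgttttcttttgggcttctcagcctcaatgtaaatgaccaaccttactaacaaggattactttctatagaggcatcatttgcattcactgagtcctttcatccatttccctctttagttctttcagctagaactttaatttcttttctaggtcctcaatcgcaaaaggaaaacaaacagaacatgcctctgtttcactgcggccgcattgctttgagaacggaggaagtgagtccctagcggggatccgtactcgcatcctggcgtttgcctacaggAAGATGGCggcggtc
Ndufs8: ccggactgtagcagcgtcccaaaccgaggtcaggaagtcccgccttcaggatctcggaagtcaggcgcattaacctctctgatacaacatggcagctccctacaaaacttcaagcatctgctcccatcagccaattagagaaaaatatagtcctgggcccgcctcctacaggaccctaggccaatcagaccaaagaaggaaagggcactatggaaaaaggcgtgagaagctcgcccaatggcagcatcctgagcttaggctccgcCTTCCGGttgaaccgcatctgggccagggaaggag
Counted from the RefSeq start of the gene, the capitals begin at position -169 in Cycs, 36 in Ndufs4 and 16 in Ndufs8. For Cycs and Ndufs4 that start differs from the one in the gene coordinates given below, which come from GENCODE. Of the 38 genes, 29 had an entry in that table. A gene was counted once, if any of its promoters of that length held the motif on either strand. The NRF1 motif (GCGCA, any base, GCGC) was in 6 of the 29 (20.7%, against 5.19% of all 27025 genes with a promoter). The YY1 core was in 6 (20.7% against 3.19%). The ETS core was in 5 (17.2% against 9.93%) and the cAMP response element in 3, namely Cycs, Ndufa10 and Uqcrfs1 (10.3% against 2.03%). The NF-kB form (GGGA, any base, TT, any base, CC) was in 0 of 29, against 1.38% of all genes with a promoter. In all, 18 of the 29 genes held at least 1 of these letter strings and 11 held none. NRF1, ETS factors of the GABP type and YY1 are well-known activators of respiratory genes, and a match describes letters, not binding.

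Total counts were between 33937823 and 42074624 per library, and the 38 genes together took between 57904 and 91556 counts. Single genes had between 236 and 9431 counts. The inducible genes Il6, Tnf, Nos2 and Il1b summed to 189 CPM (counts scaled to library size with TMM, edgeR's trimmed mean method, the level used throughout) in the unstimulated wild-type library and 59.4 CPM in the unstimulated deficient library. Under LPS they summed to 14364 and 9168 CPM. Without LPS, Il6 (3.46 against 0.153 CPM), Nos2 (93 against 3.77 CPM) and Il1b (73.1 against 13 CPM) were higher in the wild-type library, and Tnf (19.8 against 42.4 CPM) was higher in the deficient library. Macrophage markers summed to 22156 and 22731 CPM without LPS and to 13394 and 15149 CPM with it, 8 of 8 detected. Lyz2 made up most of that sum (17670, 8664, 18594 and 10310 CPM in the order of the groups above), while Adgre1, Fcgr1 and Cd14 rose with LPS. Of the 8 markers, 5 were lower with LPS in wild-type cells and 4 in deficient cells, and the others were higher. Among all tested genes 50.8% and 52.8% were lower. Itgam had 965 CPM in the unstimulated wild-type and 291 CPM in the unstimulated deficient library. The lists for neutrophils, lymphocytes, dendritic cells, stroma and erythroid or mast cells each summed to at most 10.6 CPM, and Ly6g, Elane, Cd3d, Ncr1, Flt3 and Mcpt4 were among the markers at 0 in all libraries. The part of these differences in the results was not tested. The libraries do not measure mature miR-7, so the genotype labels were not checked, and the precursor entry Mir7-1 had 15, 10, 7 and 7 counts in the order of the groups above. The 37 mitochondrial entries were listed at 0 in every library, so the 13 subunits made from mitochondrial DNA have no value here.

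The question put to LPS was which respiratory genes differ between stimulated and unstimulated macrophages. Cycs rose 3.23-fold in wild-type and 2.97-fold in deficient cells, and Ndufs4, a complex I subunit needed for a stable NADH-binding arm, rose 1.78-fold and 1.98-fold. Ndufs8, an iron-sulphur subunit of complex I, fell by a fitted 0.90 on the log2 scale. The other 35 genes did not pass the test, and most of those in complexes I and IV had slightly lower scaled counts with LPS. By edgeR's quasi-likelihood test with Benjamini-Hochberg adjustment over the 12730 genes tested, in a model of genotype plus LPS, 2 of 38 rose, where 18.0% of all genes rose, and 1 of 38 fell, where 16.3% of all genes fell. At an unadjusted p under 0.05, 2 were higher (22.5% of all genes) and 5 lower (22.4% of all genes), so the calls were no more frequent than among all genes. The fitted log2 fold change was negative for 30 of 38 genes (6591 of all 12730), with a median of -0.26 against -0.04 over all genes. Each group holds 1 library, so the pairs of the 2 genotypes stand in for replicates and the model keeps 1 residual degree of freedom. In bulk RNA, fewer cells of a type and less RNA per cell cannot be told apart.

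**Figure D1:**
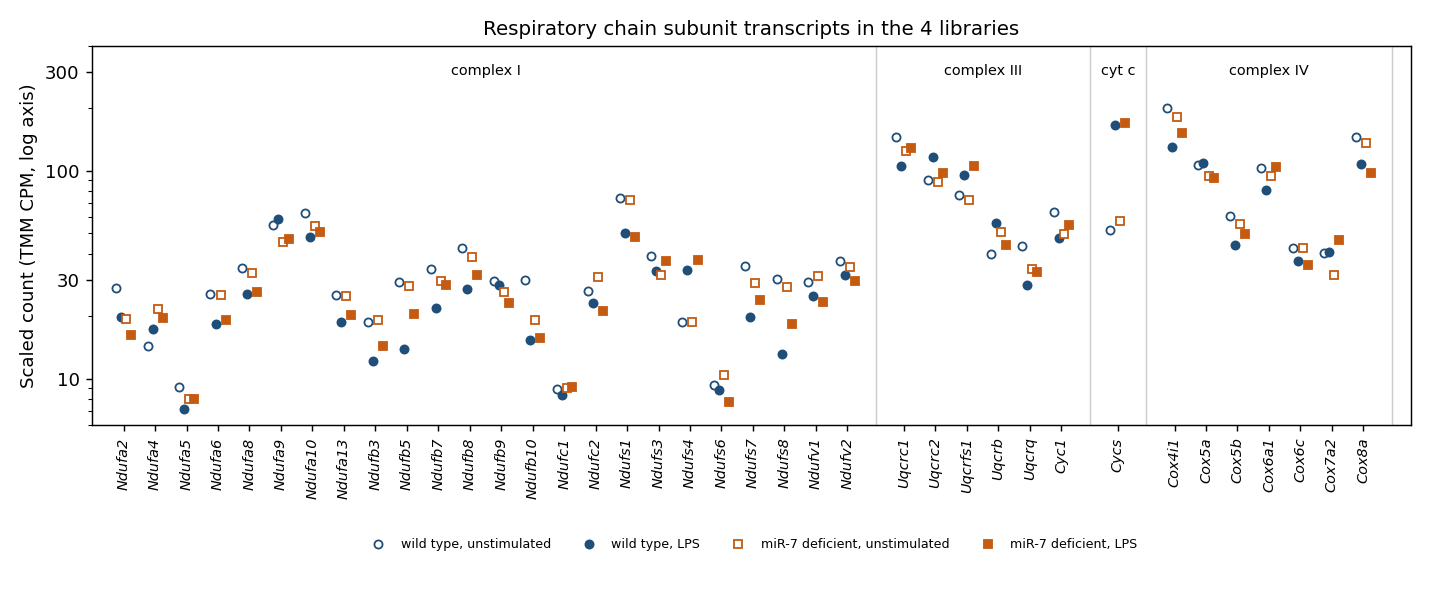
Scaled counts (TMM CPM, log axis) of the 38 genes in each library, grouped by complex; open symbols are unstimulated libraries and filled symbols LPS libraries, circles wild type and squares miR-7 deficient, with 1 library per group and so no error bar. The filled Cycs symbols, at 167 and 171 CPM, lie far above the open ones, at 51.7 and 57.6 CPM, whereas for most genes of complexes I and IV the filled symbols lie a little below the open ones.

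Cytochrome c is the small haem protein that carries electrons from complex III to complex IV, and once released from mitochondria it starts the apoptosome. Cycs (ENSMUSG00000063694, GRCm38, chromosome 6, 50562563 to 50566538, minus strand) had 51.7 CPM in unstimulated and 167 CPM in LPS-treated wild-type cells, and 57.6 and 171 CPM in the deficient cells. Both LPS libraries were high, both unstimulated libraries were low, and the groups did not overlap. The share of all tested genes that separate in this way is not given, for Cycs or for the genes below. Such an order therefore only describes the 4 libraries. The ratio was 3.23-fold in wild type (log2 1.69, 95% interval 1.62 to 1.76) and 2.97-fold in deficient cells (1.57, 1.5 to 1.64), where the intervals are exact Clopper-Pearson limits and cover counting error only. The fitted log2 fold change was 1.63 (SE 0.18), with an adjusted p of 0.00137 by edgeR. It was the largest of the 38 fitted changes in either direction. Pseudogenes and 1 gene annotated as coding, Gm10053 (99.9% identical over 946 bases), closely match Cycs, so reads could be divided among them. The 4 such copies together held 185, 524, 336 and 705 counts in the order of the groups above, equal to 7.65%, 9.47%, 14.9% and 11% of the Cycs counts in the same libraries. The 2417, 5533, 2258 and 6394 counts assigned to Cycs itself carry its call.

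Ndufs4 (ENSMUSG00000021764, chromosome 13, 114287795 to 114388258, minus strand) had 18.7 CPM in unstimulated and 33.3 CPM in LPS-treated wild-type cells, and 18.8 and 37.2 CPM in deficient cells. As with Cycs, both LPS libraries lay above both unstimulated ones. The fitted log2 fold change was 0.91 (SE 0.21), with an adjusted p of 0.0177 by edgeR. In the pairs it was 1.78-fold higher in wild type (log2 0.83, 0.70 to 0.96) and 1.98-fold higher in deficient cells (0.98, 0.85 to 1.12). Cycs and Ndufs4 were the 2 genes of the 38 whose whole interval lay above 1.5-fold in wild-type cells, where 22.7% of all tested genes did, and the same 2 in deficient cells, where 18.9% did.

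Ndufs8 (ENSMUSG00000059734, chromosome 19, 3908863 to 3912774, minus strand) encodes a core subunit that holds iron-sulphur clusters on the way to ubiquinone. It had 30.3 CPM in unstimulated and 13.1 CPM in LPS-treated wild-type cells, and 27.5 and 18.4 CPM in deficient cells. Both LPS libraries were lower than both unstimulated libraries. The fitted log2 fold change was -0.90 (SE 0.24), with an adjusted p of 0.0329 by edgeR. The log2 ratio was -1.21 in wild type (-1.37 to -1.06) and -0.58 in deficient cells (-0.72 to -0.44). The call sits near the threshold: the adjusted p was 0.0719 with no filter on low counts and between 0.105 and 0.188 when the unstimulated wild-type, the LPS wild-type or the unstimulated deficient library was left out. Ndufs4 lost its call in the same way without the unstimulated wild-type library (adjusted p = 0.103) or the unstimulated deficient library (0.0931), and Cycs kept its call without each library in turn.

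Besides Ndufs8, 3 complex I genes had their whole interval more than 1.5-fold lower with LPS in wild-type cells, which makes 4 of 38, where 21.6% of all genes tested did. None of the 38 did so in deficient cells, where 19.9% of all genes did. These counts depend on the settings: with total counts 20 were lower in wild type and 9 in deficient cells, and at a limit of 2-fold 1 and 0 were. A limit below 1.5-fold raised them to 15 and 4. The shares of all tested genes at these settings are not given. With total counts the median of all tested genes also moved, by -0.44 in the wild-type pair and -0.38 in the deficient pair. The counts at these settings are therefore no result about the 38 genes. The 3 complex I genes named besides Ndufs8 did not pass edgeR's test. Ndufb5, an accessory subunit of the membrane arm, had 29.1, 13.9, 27.9 and 20.5 CPM in unstimulated wild type, LPS wild type, unstimulated deficient and LPS deficient cells, the order used from here on. Its log2 ratio was -1.06 in wild type and -0.44 in deficient cells (fitted -0.75, SE 0.24, adjusted p = 0.0561 by edgeR), and its exons overlap those of Mrpl47 on the other strand. Ndufb10, another membrane-arm accessory subunit, had 29.9, 15.3, 19.1 and 15.7 CPM. Its log2 ratio was -0.97 in wild type and -0.28 in deficient cells (adjusted p = 0.103), and the unstimulated wild-type library stands alone above the other 3. Ndufs7, the core subunit with the last iron-sulphur cluster before ubiquinone, had 35, 19.9, 28.8 and 23.9 CPM, with log2 ratios of -0.82 and -0.27 (adjusted p = 0.121).

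**Figure D2:**
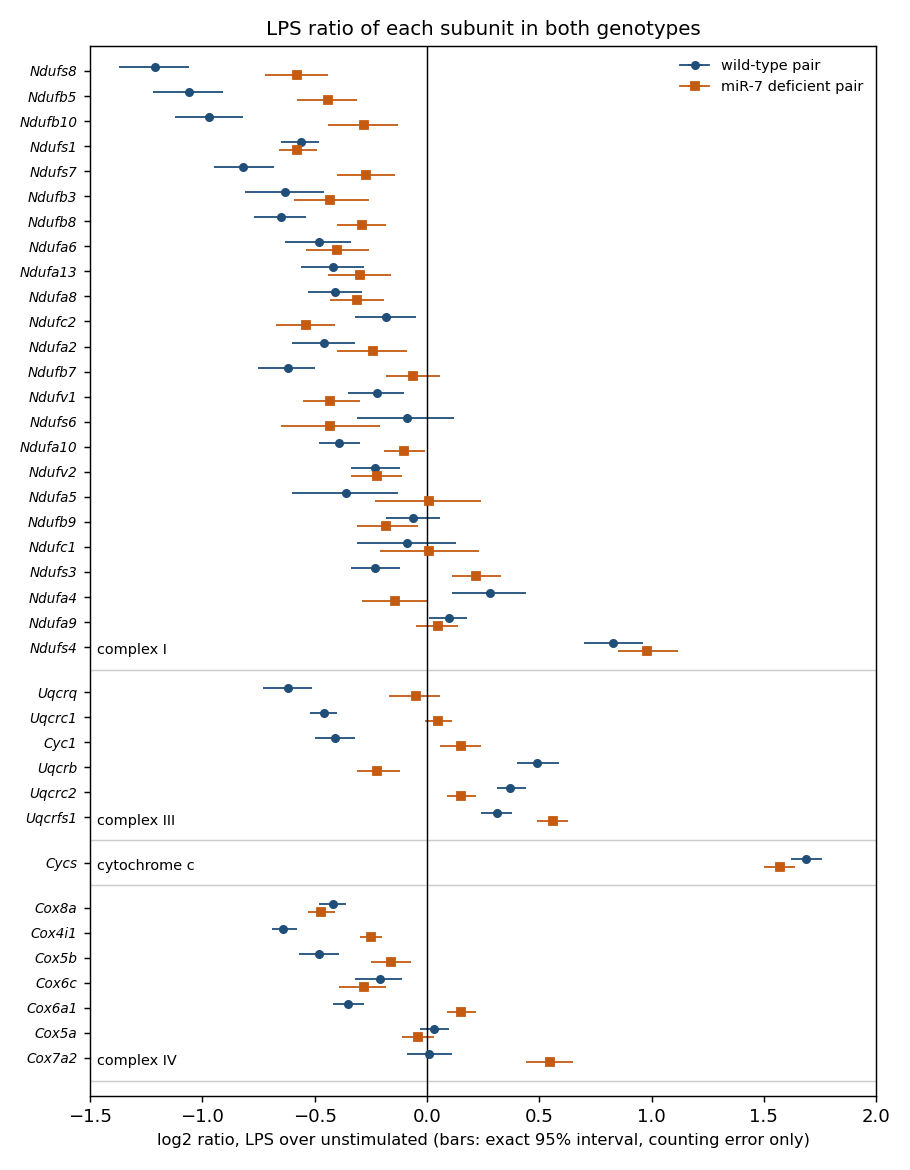
Log2 ratio of LPS over unstimulated scaled counts for each gene, sorted by fitted change within its complex; circles are the wild-type pair, squares the miR-7 deficient pair, and bars the exact 95% interval, which covers counting error only. Cycs and Ndufs4 lie to the right in both pairs, and Ndufs8, Ndufb5, Ndufb10 and Ndufs7 lie further left in the wild-type pair than in the deficient pair.

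Among the remaining core subunits of complex I, Ndufs1, the large iron-sulphur subunit, had 74.3, 50.4, 72.1 and 48.3 CPM. Its log2 ratios of -0.56 and -0.58 were alike in both pairs, and its adjusted p was 0.0598. Ndufv1, which binds NADH and flavin, had 29.1, 24.9, 31.2 and 23.3 CPM, and its partner Ndufv2 had 36.9, 31.5, 34.4 and 29.5 CPM. Both were lower in each LPS library than in each unstimulated library, by log2 ratios between -0.43 and -0.22. Ndufs3, a core subunit next to Ndufs7 and Ndufs8, had 38.8, 33.1, 31.5 and 36.7 CPM and so was lower with LPS in wild type and higher in deficient cells. None of these passed the test.

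The remaining accessory subunits of complex I surround the core and serve its assembly and stability, and none passed the test. Ndufb3 (18.7, 12.1, 19.2 and 14.3 CPM, fitted -0.53) and Ndufb8 (42.6, 27.1, 38.5 and 31.4 CPM) had lower values in both LPS libraries than in both unstimulated ones. So did Ndufa6, Ndufa8, Ndufa13 and Ndufc2, with Ndufa6 at 25.7, 18.4, 25.3 and 19.2 CPM. Ndufa2 had 27.4, 19.9, 19.3 and 16.3 CPM, so its LPS wild-type value exceeded the unstimulated deficient one. Ndufb7 (33.9, 22, 29.4 and 28.2 CPM) and Ndufa10 (62.8, 48, 54.6 and 51 CPM) were lower mainly in the wild-type pair. Ndufa9 (55, 58.8, 45.4 and 47 CPM) and Ndufb9 (29.5, 28.3, 26.2 and 23.2 CPM) had log2 ratios between -0.18 and 0.10. The low-count genes Ndufa5, Ndufc1 and Ndufs6 lay between 7.12 and 10.4 CPM, with ratios from -0.43 to 0.01 and log2 intervals up to 0.25 wide on each side. In complex I as a whole, 1 gene rose, 1 fell and 22 did not pass, with 21 of 24 fitted changes negative and a median of -0.35.

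Ndufa4 was named as a complex I subunit and is now regarded as part of complex IV; it is counted with complex I here by its name. It had 14.3, 17.3, 21.6 and 19.6 CPM and did not pass the LPS test (fitted 0.06, SE 0.23, adjusted p = 0.848). Its paralogue AA467197, known in human as C15orf48, encodes a protein that can take the place of Ndufa4 in complex IV, and its exons contain the microRNA gene Mir147. AA467197 had 33.7, 1180, 25.8 and 349 CPM. Both LPS libraries were far above both unstimulated ones, and the wild-type LPS library was the highest. The fitted log2 fold change was 4.44 (SE 0.39), with an adjusted p of 0.000578 by edgeR, and the log2 ratio was 5.13 in wild type and 3.76 in deficient cells. The difference between these ratios, deficient minus wild type, was -1.37 (-1.49 to -1.26), an interval of counting error only, since 1 library per group leaves no test of it. The adjusted p for LPS was 0.0521 without the unstimulated wild-type library and 0.0533 without the unstimulated deficient one. Per kilobase of exonic length, AA467197 stood at 2.71, 78.4, 1.37 and 20.5 times the level of Ndufa4 in the 4 libraries. With the median length of the coding transcripts in place of exonic length, a choice made after seeing the data, the same ratios were 1.41, 40.7, 0.711 and 10.6. The rise of that ratio with LPS cannot depend on the length used, since each length is the same in all 4 libraries. The order of the genes in the unstimulated deficient library did change with it.

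**Figure D3:**
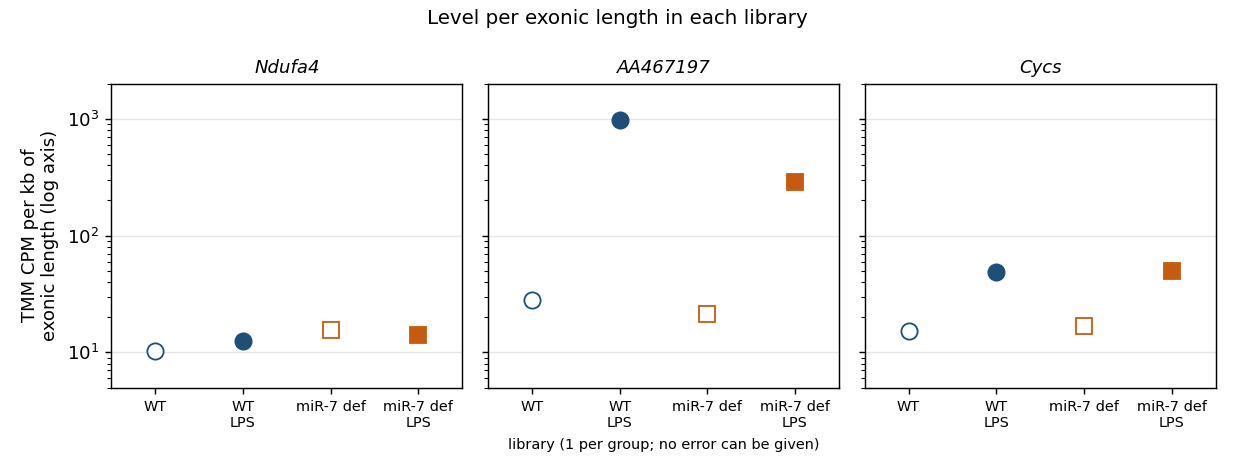
TMM CPM per kilobase of exonic length (log axis) of Ndufa4, its paralogue AA467197 and Cycs in the 4 libraries, 1 point per library and no error bar; open symbols are unstimulated and filled symbols LPS. Ndufa4 stays between 10.3 and 15.7, AA467197 goes from 28 to 981 in wild type and from 21.5 to 290 in deficient cells, and Cycs goes from 15.2 to 49 and from 16.9 to 50.2.

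Complex III passes electrons from ubiquinol to cytochrome c, and none of its 6 listed genes passed the test in either direction. Their fitted changes were divided evenly, 3 below 0 and 3 above, with a median of 0.00. The complex III subunits outside the list, Uqcrh, Uqcr10 and Uqcr11, were all lower (-0.28, -0.41 and -1.24), and Uqcr11 passed the test. The even division thus holds for the listed 6 only. Uqcrfs1, the Rieske iron-sulphur protein, had 76.9, 95.5, 72.3 and 106 CPM, higher in both LPS libraries (fitted 0.43, SE 0.19, adjusted p = 0.121). Uqcrc2, a core subunit without a redox centre, had 90.4, 117, 88.3 and 98.3 CPM, also higher in both LPS libraries. Its partner Uqcrc1 had 146, 106, 125 and 129 CPM, lower with LPS in wild type only. Cyc1, the cytochrome c1 subunit that reduces cytochrome c, had 63.4, 47.6, 49.7 and 55.1 CPM, and the small subunit Uqcrq had 43.3, 28.2, 33.7 and 32.5 CPM. Uqcrb, a small subunit at the ubiquinone site, had 40, 56.3, 51 and 43.8 CPM, the reverse order of Cyc1 within each pair. Pseudogenes near-identical to Uqcrb held at most 15 counts each per library.

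Complex IV, cytochrome c oxidase, likewise had no gene past the test; 6 of 7 fitted changes were negative and the median was -0.25. Cox4i1, a regulatory subunit, had 202, 130, 181 and 153 CPM (fitted -0.44, SE 0.20, adjusted p = 0.132). Cox8a, a small membrane subunit, had 145, 108, 136 and 98 CPM (fitted -0.45, SE 0.18, adjusted p = 0.102). In both genes the unstimulated libraries lay above the LPS libraries. Cox5b (61, 43.8, 55.7 and 49.8 CPM) and Cox6c (42.6, 36.8, 42.7 and 35.1 CPM) showed the same order at smaller size. Cox5a had 107, 109, 95 and 92.3 CPM, with no difference by LPS larger than its counting interval. Cox6a1 (103, 80.8, 94.4 and 105 CPM) and Cox7a2 (40.5, 40.8, 31.7 and 46.3 CPM) had their highest value in the deficient LPS library.

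Over the listed genes of each complex, summed scaled counts differed more with LPS for complexes I and IV than for complex III. The complex III subunits Uqcrh, Uqcr10 and Uqcr11 are outside the 38 and not in these values. All had negative fitted changes with LPS (-0.28, -0.41 and -1.24), so the contrast holds for the listed genes only. Complex I summed to 745, 579, 686 and 596 CPM, and complex IV to 701, 550, 637 and 579 CPM. Complex III summed to 460, 451, 420 and 465 CPM, with its LPS and unstimulated libraries overlapping. Summed per kilobase of exonic length, complex III stood at 226, 243, 217 and 241, so both LPS libraries lay slightly above both unstimulated ones. On that measure complex I summed to 448, 349, 412 and 350, and complex IV to 656, 507, 597 and 541. The median log2 ratio was -0.40 in wild type and -0.28 in deficient cells for complex I, -0.35 and -0.16 for complex IV, and -0.05 and 0.10 for complex III, against -0.02 and -0.05 over all tested genes. Over the 38 genes it was -0.38 and -0.20, and 19 had both intervals below 0 (32.9% of all genes), while 4 had both above (31.2%). The genes of a complex are not replicates of a condition, so these differences between complexes are descriptions of 4 libraries and have no test.

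Levels per exonic kilobase differed more among the genes than any of them did with LPS. The median level, averaged over libraries, was 15.5 CPM per kb for complex I, 34.6 for complex III and 48 for complex IV. By coding transcript length the medians were 27, 66.4 and 156, in the same order. In complex I the highest was Ndufa2 at 36.2 CPM per kb and the lowest Ndufb5 at 4.58. In complex III the highest was Uqcrfs1 at 64.4 and the lowest Uqcrq at 18.8. In complex IV the highest was Cox8a at 197 and the lowest Cox6c at 11. Only Cox8a kept that place with the coding transcript length (222 CPM per kb); the other places changed with the length used, and Ndufa6 then led complex I at 58.

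The size of the LPS differences and the number called depended on the scaling of the libraries. TMM sets the typical gene near no change, and with total counts in its place the median of all tested genes moved by -0.44 in the wild-type pair and -0.38 in the deficient pair. On that scale 1 of the 38 rose (Cycs, where 12.2% of all genes rose) and 19 fell (where 30.2% of all genes fell). Fitted changes were negative for 35 of 38, against 30 under TMM, and the share of all genes for that count is not given. Since total counts lowered the LPS ratios, changes negative under TMM were bound to stay negative, so the 35 adds no support. Ndufs4 was no longer called (adjusted p = 0.104). The 19 comprised 15 complex I genes and 4 complex IV genes, Cox4i1, Cox5b, Cox6c and Cox8a, and no complex III gene. The median ratio of the 38 was then -0.82 in wild type and -0.57 in deficient cells, against -0.46 and -0.43 over all tested genes.

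The second question was whether these genes differ between miR-7 deficient and wild-type cells. None passed the test: 0 of 38 were higher, where 0.385% of all genes were, and 0 were lower, where 0.165% were, by edgeR's quasi-likelihood test with Benjamini-Hochberg adjustment. At an unadjusted p under 0.05 the count was 0 in each direction, where 4.52% of all genes were higher and 3.08% lower, and DESeq2 also called 0. The median fitted log2 difference, deficient minus wild type, was -0.01, against 0.02 over all genes. In unstimulated cells the median ratio was -0.11 (-0.00 over all genes), and 28 of 38 were below 0, where 50% of all genes were. Under LPS the median ratio was 0.11 (0.02 over all genes), and 13 of 38 were below 0, where 47.8% of all genes were. No gene had its whole interval beyond 1.5-fold in either condition: 0 higher (6.47% of all genes) and 0 lower (3.29%) when unstimulated, and 0 higher (6.24%) and 0 lower (6.85%) under LPS. Ndufa4 and Ndufb10 came nearest in unstimulated cells, Ndufa4 at 0.60 (0.45 to 0.75) and Ndufb10 at -0.65 (-0.78 to -0.52). Under LPS the 2 genes furthest from 0 on the higher side were Ndufb5 at 0.56 (0.39 to 0.73) and Ndufs8 at 0.49 (0.32 to 0.67). Anything the libraries of a genotype share counts as genotype in this model.

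The LPS ratio itself was compared between genotypes as the deficient minus the wild-type log2 ratio. It was above 0 for 25 of 38 genes (49.8% of all tested genes), with a median of 0.18 against -0.00 over all tested genes. The interval lay above 0 for 18 (31.5% of all genes) and below 0 for 7 (33.0%). The medians were 0.13 for complex I, 0.37 for complex III and 0.32 for complex IV, and Cycs stood at -0.12 (-0.22 to -0.03). The positive differences were widest for Ndufb10 (0.68, 0.47 to 0.90), Ndufs8 (0.63, 0.43 to 0.84) and Ndufb5 (0.62, 0.42 to 0.82). These genes were lower with LPS in both genotypes and less so in deficient cells. The unstimulated wild-type library, which enters this difference for every gene, also had the higher Il6, Nos2 and Il1b and the lower Tnf given above, and the part of that in the difference was not tested. In 5 genes, where 8.37% of all tested genes did so, the intervals of the genotypes lay on opposite sides of 0: Ndufa4 and Uqcrb were higher with LPS in wild type and lower in deficient cells, and Ndufs3, Cyc1 and Cox6a1 the reverse. These intervals hold counting error only, and no test of the difference is possible with 1 library per group.

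Subunits and assembly factors outside the 38 were counted in the same model, in which 18.0% of all genes rose and 16.3% fell. Of 13 further complex I subunits, 1 fell (Ndufb11, -1.0, SE 0.22, adjusted p = 0.0171) and 12 did not pass; of 15 complex I assembly factors found, 2 fell, Ndufaf4 (-1.71) and Tmem126b (-1.05). Of the 7 complex II genes none passed: the subunits Sdha, Sdhb, Sdhc and Sdhd had fitted changes of -0.53, -0.16, -0.34 and -0.37, with Sdha at 283, 176, 236 and 184 CPM (adjusted p = 0.0818). Of 8 tested further complex III genes Uqcr11 fell (-1.24), and of 4 further complex IV subunits Cox7a2l, which joins complexes III and IV, fell (-0.89, adjusted p = 0.0127). Of 21 complex IV assembly factors, 4 rose and 2 fell. Coa5 had 156, 529, 148 and 551 CPM (1.83, SE 0.19, adjusted p = 0.00113), Cox18, which inserts a mitochondrially made subunit, had 4.45, 15, 3.9 and 16.9 CPM (1.93), and the copper carrier gene Sco1 had 8.46, 28.7, 10.3 and 31.1 CPM (1.68). Cox17, which delivers copper to Sco1, also rose (1.27), and Cox16 and Higd2a fell (-1.02 and -1.0). The tissue-specific isoform Cox4i2 was listed at 0 in all 4 libraries, and Ndufa4l2 had 5 counts in wild-type LPS cells and 0 elsewhere.

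**Figure D4:**
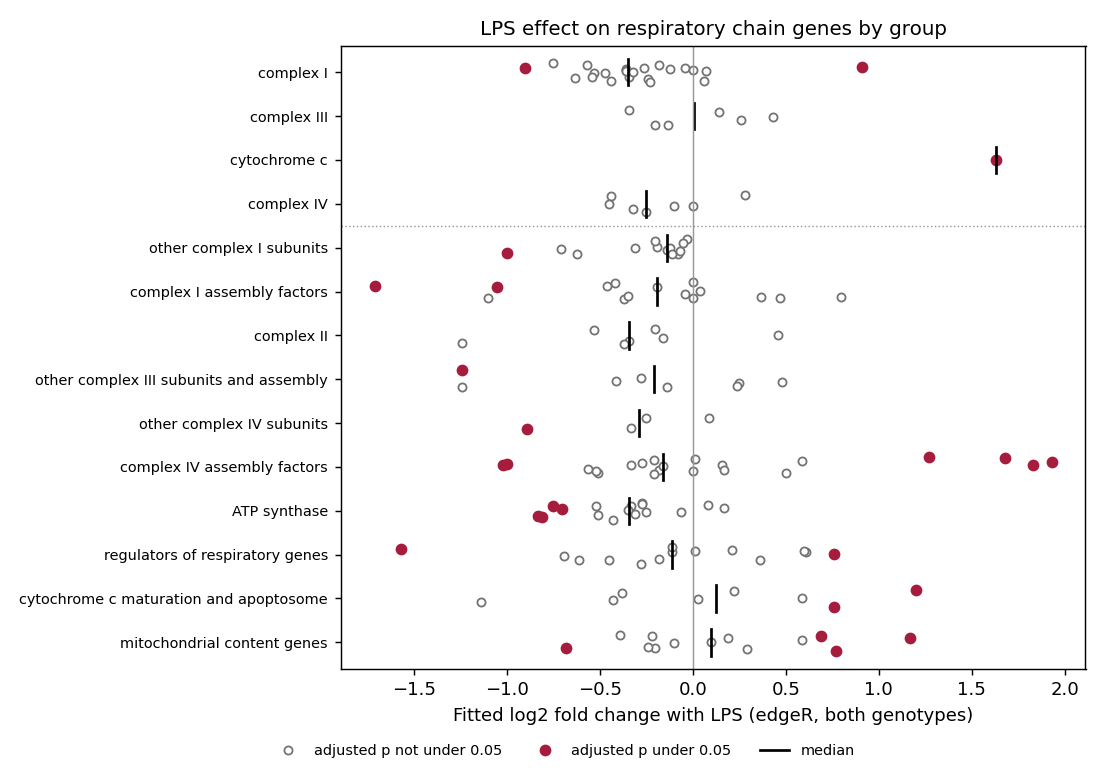
Fitted log2 fold change with LPS (edgeR model over both genotypes) for each tested gene, by group, with the median of each group as a vertical bar; filled points have an adjusted p under 0.05, and vertical scatter within a group has no meaning. Above the dotted line are the 38 genes, with Cycs at 1.63 and complex I centred on -0.35; below it are related lists, among which the complex IV assembly factors hold 4 points from 1.27 to 1.93.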

How the data were processed

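Per the labels and the series design text, reads were sequenced on a HiSeq 2000, base-called with Casava v1.8.2, trimmed with Cutadapt and aligned with TopHat v2.0.13 and Bowtie2, and exon annotation came from Partek. The submitters' processing notes name HTSeq and the build mm8. The authors deposited raw counts per gene, whole numbers with no normalization. The annotation release, strand setting and handling of multi-mapped reads are not stated in those sources; without a stated strand, the 13 members that share exonic bases with another gene may hold its reads.

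Gene IDs without versions matched GENCODE M21 (GRCm38) for 52403 of 52550 entries (99.7%), which supplied symbols, coordinates and lengths. Copies were sought by BLAST among annotated transcripts (at least 200 aligned bases at 95% identity or more), and 7 members had one. Genes with at least 1 CPM in at least 2 libraries were tested (12730). In R 4.3.3 with edgeR 4.0.16, a quasi-likelihood model of genotype plus LPS was fitted to all 4 libraries, and calls needed a Benjamini-Hochberg adjusted p under 0.05. The standard error is the fold change divided by the root of its F. The 1 residual degree of freedom is the difference between the LPS ratios of the genotypes. EdgeR combines it with the spread shared across genes (prior degrees of freedom 5.18). Nothing says that libraries came from separate animals, so the p-values measure no spread between replicates or animals. Pair ratios used exact 95% Clopper-Pearson limits and differences of ratios a normal interval after adding 0.5 counts. The fitting script was tested on simulated data. Alternatives were DESeq2 1.42.0 and its size factors, total-count scaling, other count filters, leaving out overlapping genes or copies, a model of 1 factor and leaving out each library. The fits that left out a library also held 1 factor only. The members and lists were chosen with earlier results of these data known. Every member is accounted for; full values go to members past a test, beyond 1.5-fold in a pair, or highest or lowest per kb in a complex, and of each other list up to 3 called genes and a few set by name.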

Additional observations from a re-analysis of the deposited data

Results flagged for a closer look

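For 5 genes, LPS ratios lay on opposite sides of no change in the 2 genotypes, with both counting intervals clear of 0. The share of all tested genes that did so was 8.37%. The difference of log2 ratios, deficient minus wild type, was -0.42 for Ndufa4, 0.45 for Ndufs3, -0.71 for Uqcrb, 0.56 for Cyc1 and 0.51 for Cox6a1. Ndufa4 and Uqcrb were higher with LPS in wild type and lower in deficient cells, and the other 3 the reverse. The difference was not tested, since each group holds 1 library. With DESeq2's size factors 4 of the 5 stayed opposite (Ndufa4 did not), and with total counts 0 of 5 did, since all 5 deficient ratios and 4 of the wild-type ratios were then below 0, with Uqcrb at 0.05 in wild type.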

How the results depend on the processing

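No paired analysis was possible because each group held 1 library, and genotype is already a term of the model. The count of genes that rose with LPS, 2, was 1 with total counts, 1 without genes that have a near-identical copy (Cycs itself is left out there) and 1 to 2 without each library in turn. The count that fell, 1, was 19 with total counts, 0 with no filter on low counts, 3 with a minimum CPM of 10 (Ndufb5, Ndufs1 and Ndufs8), and 0 to 2 without each library. With LPS as the only factor 1 also fell, but it was Ndufs1, with Ndufs8 at an adjusted p of 0.0502. With total counts the median ratio was -0.82 in wild type and -0.57 in deficient cells. The interval counts with LPS, 2 higher in each genotype, were 1 in each with total counts or at 2-fold. The shares of all genes at those settings are not given here. The count past the genotype test was 0 under every alternative that kept LPS in the model. The 1-factor model and the fits without a library held genotype alone. The LPS difference then entered their spread, so they could hardly return a call, and no conclusion is drawn from them. Cycs had an adjusted p of at most 0.0227 in every alternative that tested it. The cause of these shifts was not tested, beyond the genes or libraries each alternative leaves out. Depth gives single ratios a log2 half-width between 0.04 and 0.25; the limit lies in having 1 library per group.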

Other observations

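Genes around the respiratory chain gave these values for LPS in the same edgeR model, in which 18.0% of all genes rose and 16.3% fell. Of 16 ATP synthase genes, 0 rose and 4 fell, with a median of -0.34: the membrane-ring genes Atp5g2 (-0.83, adjusted p = 0.0229) and Atp5g1 (-0.75), the inhibitor Atpif1 (-0.81) and Atp5j2 (-0.70). Of 14 tested regulators, Ppargc1b, a coactivator of respiratory genes, fell (8.81, 2.62, 11.3 and 4.27 CPM, -1.57, SE 0.31, adjusted p = 0.011), and Gabpb1 rose (0.76). Nrf1 had 11.1, 8.2, 10.4 and 10.9 CPM, Gabpa 40.6, 42.3, 51.5 and 42.5 CPM, and the mitochondrial DNA factor Tfam 15.6, 16.2, 15.2 and 14.9 CPM, none past the test. Ppargc1a had 10 counts in unstimulated deficient cells and 0 elsewhere.

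Among 8 genes of cytochrome c maturation and the apoptosome, Bak1, which opens the outer membrane, rose (1.20, adjusted p = 0.00402), as did Apaf1, which binds released cytochrome c (57.1, 89.6, 44.8 and 81.3 CPM, 0.76, adjusted p = 0.0247). Hccs, the enzyme that attaches haem to cytochrome c, had 19.5, 17.2, 26.9 and 16.7 CPM (-0.43, adjusted p = 0.198). Of 13 genes of general mitochondrial content 3 rose, Vdac3 (1.17), Timm23 (0.77) and Immt (0.69), and Tomm20 fell (-0.68), with a list median of 0.10. No gene of these lists passed the genotype test.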
